A study of Mus musculus with 4 samples.

Results

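The Id genes and the feedback inhibitors of bone morphogenetic protein (BMP) signalling were followed in C3H10T1/2, a line of mouse mesenchymal stem cells, with and without BMP3. The genes were Id1, Id2, Id3, Id4, Smad6, Smad7, Smad9, Bambi and Atoh8, known direct targets of SMAD1/5 and inhibitors of the pathway. Every probe set annotated to 1 of these symbols alone was taken, which gave 14 of the 45037 probe sets tested and 9 of the 18193 genes with a probe set of their own. The control group was 2 untreated cultures and the BMP3 group was 2 cultures given recombinant human BMP3 at 100 ng/ml for 6 hours. All 4 came from the same line under standard culture, with no genetic change named, and each RNA was hybridised to 1 Affymetrix array. The labels call the arrays of a group biological replicates but do not say what the cultures shared, so every p-value here measures the spread between these arrays. Values were read as log2 intensities, and a difference is BMP3 minus control on that scale.

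BMPs are secreted ligands that bind pairs of serine/threonine kinase receptors, which phosphorylate SMAD1, SMAD5 and SMAD9. These join SMAD4, enter the nucleus and switch on early target genes, of which the Id genes are the standard readout in mesenchymal cells. ID proteins carry a helix-loop-helix domain but no DNA-binding region, and they hold back differentiation by tying up E proteins, the partners of tissue-specific basic helix-loop-helix (bHLH) factors. SMAD6 and SMAD7, which block receptor SMADs, and BAMBI, a decoy receptor without a kinase, are induced by the same signal and damp it. BMP3 is an atypical member of the family, best known as a negative regulator of bone density.

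Levels of 6 of the 9 genes exceeded a log2 value of 6 on all 4 arrays, whose medians ran from 3.31 to 3.40, and all 6 averaged lower with BMP3. Id2 stood furthest apart, at 3.22-fold below its control level, followed by Id3 and Id1, and then by Smad7, Smad6 and Bambi. Id4, Smad9 and Atoh8 lay below the median of every array, so no difference is given for them singly. Bulk RNA does not tell fewer cells expressing a gene from less RNA per cell. No probe set of the whole table passed limma's adjusted p threshold of 0.05 (0 of 45037, smallest adjusted p = 0.213), and none of the 14 did. At an unadjusted p under 0.05, limma counted 3779 probe sets, 8.39% of all, and 3 of the 14.

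Promoter windows of 6 of the 9 genes were searched in RefSeq's GRCm38.p6 table. Each window spans 250 bases before and 50 bases from the start of a transcript. Any windows of the 9 genes on 1 chromosome were left out of the search by rule. Of the 6 genes above a log2 value of 6, only Id2, Id3 and Smad6 had a window searched, and these are shown. Capitals mark matches to GGCGCC and GGAGCC, GC-rich motifs known from BMP-responsive elements, and to CAGAC, the SMAD box, on either strand.
Id2, chr12:25096043-25096342, minus strand: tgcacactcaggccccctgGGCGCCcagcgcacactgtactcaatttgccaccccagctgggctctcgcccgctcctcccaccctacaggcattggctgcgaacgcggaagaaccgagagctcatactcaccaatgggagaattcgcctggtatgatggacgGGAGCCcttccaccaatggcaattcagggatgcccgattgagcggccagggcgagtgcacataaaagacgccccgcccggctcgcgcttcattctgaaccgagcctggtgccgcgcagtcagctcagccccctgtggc
Id3, chr4:136143572-136143871, plus strand: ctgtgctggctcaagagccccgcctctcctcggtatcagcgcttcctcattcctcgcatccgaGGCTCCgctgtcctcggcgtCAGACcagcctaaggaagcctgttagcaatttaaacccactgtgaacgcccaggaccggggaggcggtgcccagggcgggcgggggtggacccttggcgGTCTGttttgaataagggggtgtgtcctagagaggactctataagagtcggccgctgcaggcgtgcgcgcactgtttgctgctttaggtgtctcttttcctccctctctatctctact
Smad6, chr9:64022010-64022309, minus strand: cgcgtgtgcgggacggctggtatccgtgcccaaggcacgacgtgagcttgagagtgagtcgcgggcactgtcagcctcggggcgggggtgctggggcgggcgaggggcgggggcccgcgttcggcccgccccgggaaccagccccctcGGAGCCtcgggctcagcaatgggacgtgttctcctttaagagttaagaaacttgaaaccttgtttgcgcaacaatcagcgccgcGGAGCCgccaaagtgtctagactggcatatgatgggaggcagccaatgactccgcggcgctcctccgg
The Id2 window holds GGCGCC starting at position -231 and GGAGCC at -88, counted from the transcript start in the direction of the gene. The Id3 window holds GGAGCC on the opposite strand at -187 and CAGAC at -167 and, on the opposite strand, at -68. The Smad6 window holds GGAGCC at -102 and -18. Among the 6 windows, GGCGCC was present in 3, GGAGCC in 5 and CAGAC in 1. Among all 32851 windows of this length in the table, the shares were 11.9%, 30.8% and 49.6%. The 6 windows had 60% to 73.7% G or C, and the shares over all windows were not matched for this. No marked matches overlapped in the windows shown, and the Atoh8 window, with 66.7% G or C, held none of these motifs. These are matches of letters and were not tested for binding.

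The arrays were alike in their overall distribution, with 37.7% to 38.6% of probe sets at a log2 value of 6 or more. All 10 mesenchymal markers looked up, such as Col1a2 and Thy1, averaged at least 6, against 0 of 4 endothelial, 0 of 3 blood and 0 of 3 skeletal muscle markers. Epcam, read by a probe set whose design may bind other sequences, was the only 1 of 4 epithelial markers above 6 (9.37 and 9.56 in control, 9.63 and 9.49 in BMP3 arrays), and Map2 the only 1 of 3 neural markers (11.01 and 11.12 in control, 10.35 and 10.21 in BMP3 arrays). Some control probe sets differed between the groups. The poly-A spike-ins, bacterial transcripts that are no part of the cells, averaged lower in BMP3 arrays at 24 of 24 probe sets, with medians of 7.85 and 7.10 in control arrays against 6.27 and 6.50 in BMP3 arrays. Probe sets for 18S ribosomal RNA averaged 11.41 and 10.50 without BMP3 and 8.99 and 9.90 with it, while hybridization spike-ins ran from 11.12 to 11.27 on the 4 arrays. For Gapdh, 3' minus 5' probe sets gave -0.55 and -0.56 with control RNA and -0.09 and -0.44 with BMP3 RNA. For beta-actin the groups overlapped, at 0.48 and 0.39 with control RNA and at 0.73 and 0.38 with BMP3 RNA. The part of these shifts in the differences below was not tested.

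**Figure D1:**
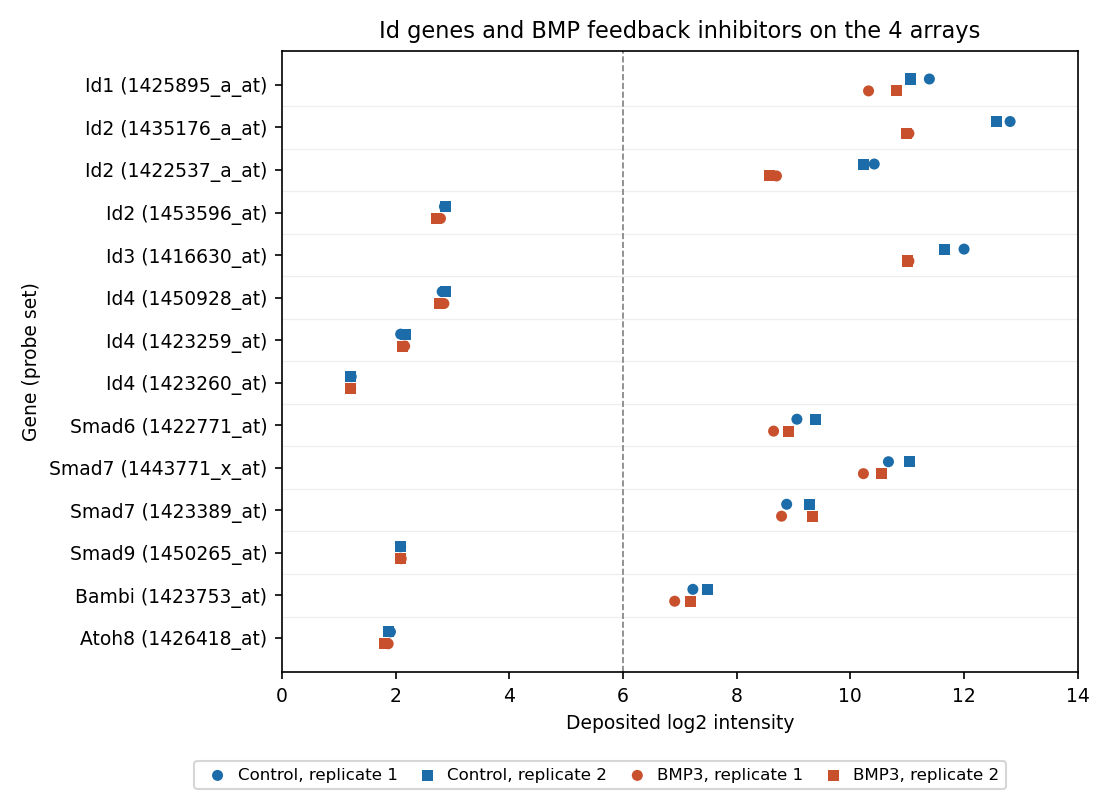
Deposited log2 intensity (horizontal axis) of all 14 probe sets of the 9 genes (vertical axis), with 1 point per array, blue for control and red for BMP3, and circles and squares for replicates 1 and 2. The dashed line is at a log2 value of 6: the 3 Id4 probe sets, Smad9, Atoh8 and 1 of the 3 Id2 probe sets lie left of it, and the widest gap between groups is at the other Id2 probe sets.

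Id2 had the widest separation of the 9 genes. Its brightest probe set, 1435176_a_at, read 12.81 and 12.57 in control arrays against 11.03 and 10.98 in BMP3 arrays. Both BMP3 arrays were low, and the nearest arrays of the groups were 1.54 apart, against at most 0.24 within a group. The means were 12.69 ± 0.17 and 11.01 ± 0.04 (SD, 2 arrays each), a difference of -1.69 (SE 0.10, 95% interval -2.01 to -1.37, limma adjusted p = 0.213), which is 3.22-fold lower. Another probe set, 1422537_a_at, read 10.42 and 10.23 in control arrays against 8.70 and 8.58 in BMP3 arrays. Its difference was also -1.69 (SE 0.10), so probe sets built on different Id2 records gave the same size in the same RNA. The remaining probe set, 1453596_at, lay between 2.72 and 2.87, below the median of every array. Among the 9185 genes whose brightest probe set averaged at least 6, Id2 had the 31st most negative difference.

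Id3, which like Id1 is a classic immediate target of BMP receptors, read 12.00 and 11.65 in control arrays against 11.03 and 11.00 in BMP3 arrays. The groups did not overlap, and the gap between their nearest arrays, 0.62, exceeded the 0.35 between the control arrays. The difference was -0.81 (SE 0.14, 95% interval -1.25 to -0.37, limma adjusted p = 0.363), or 1.76-fold lower, the 244th most negative of the 9185 genes. Id1 read 11.39 and 11.05 in control arrays against 10.32 and 10.82 in BMP3 arrays. Both BMP3 arrays were again the lower ones, but the gap between groups, 0.23, was smaller than the 0.50 between the BMP3 arrays. Its difference of -0.65 (SE 0.24, limma adjusted p = 0.664) had a 95% interval that included 0, from -1.40 to 0.10. Without BMP3 replicate 1 it was -0.40.

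The difference of Id2 exceeded that of its relatives in size on both BMP3 arrays. Relative to Id1 within each array, Id2 stood at -0.76 and -1.31 from the control mean in BMP3 replicates 1 and 2, and the difference between the changes was -1.04. Relative to Id3 the difference between the changes was -0.88, at -0.87 and -0.88 on the same arrays. An exact two-sided permutation test of 2 arrays against 2 can give no p below 0.333, and both comparisons gave that value. For Id1 against Id3 the difference between the changes was 0.16 (exact permutation p = 1). Id1 stood below Id3 on 1 BMP3 array (-0.11) and above it on the other (0.43). Id2 against Smad6 gave -1.25 (exact permutation p = 0.333) and Smad6 against Smad7 gave 0.03 (exact permutation p = 0.667). The Smad7 value here is that of its brighter probe set alone. Its other probe set, with a difference of -0.02, was not compared. In all, 5 pairs of genes were compared, and with Benjamini-Hochberg adjustment no pair could reach the threshold.

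Id4, the remaining member of the family, gave values from 2.77 to 2.87, from 2.09 to 2.18 and from 1.20 to 1.22 at its 3 probe sets. All 4 arrays lay below their medians at each, so the arrays give no Id4 level in either group. Atoh8, a bHLH factor gene that responds to BMP in other cells, read 1.91 and 1.88 in control arrays against 1.87 and 1.81 in BMP3 arrays and also lay below every median. Smad9, which encodes the receptor SMAD also called SMAD8, read between 2.08 and 2.10 on all arrays. Values of this size say nothing on whether these 3 genes differed.

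Among the inhibitors, Smad6 read 9.06 and 9.38 in control arrays against 8.65 and 8.91 in BMP3 arrays. The groups were 0.16 apart at their nearest arrays, less than the 0.32 between the control arrays, and the difference was -0.44 (SE 0.16, 95% interval -0.95 to 0.07, limma adjusted p = 0.663). Smad7 was read by a pair of probe sets that did not give the same answer. At the brighter, 1443771_x_at, it read 10.67 and 11.04 in control arrays against 10.23 and 10.54 in BMP3 arrays, a difference of -0.47 (SE 0.19, 95% interval -1.07 to 0.13). At 1423389_at it read 8.88 and 9.29 in control arrays against 8.79 and 9.34 in BMP3 arrays, where the groups overlapped and the difference was -0.02 (SE 0.27, 95% interval -0.86 to 0.82). The suffix _x_at marks probes that can bind other transcripts, so the lower Smad7 value rests on the less specific design. Bambi read 7.23 and 7.48 in control arrays against 6.91 and 7.19 in BMP3 arrays. Only 0.04 separated its nearest arrays, and the difference was -0.31 (SE 0.15, 95% interval -0.78 to 0.17, limma adjusted p = 0.81).

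For Smad6, Smad7 and Bambi the replicate number ran along with the level. In both groups the replicate 2 array read higher than the replicate 1 array, by 0.32 and 0.25 for Smad6, 0.37 and 0.31 for Smad7 (1443771_x_at) and 0.25 and 0.28 for Bambi, in control and BMP3 arrays respectively. For Id2 and Id3 the replicate 2 array read lower in both groups (-0.24 and -0.05 for Id2, -0.35 and -0.03 for Id3), and for Id1 the sign differed between groups (-0.34 and 0.50). Leaving out 1 array, which also unbalances the replicate numbers, changed the size of the inhibitors' differences. Without control replicate 2 the difference was -0.28 for Smad6, -0.29 for Smad7 and -0.18 for Bambi, and Bambi had -0.17 without BMP3 replicate 1 and -0.19 under quantile normalization.

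**Figure D2:**
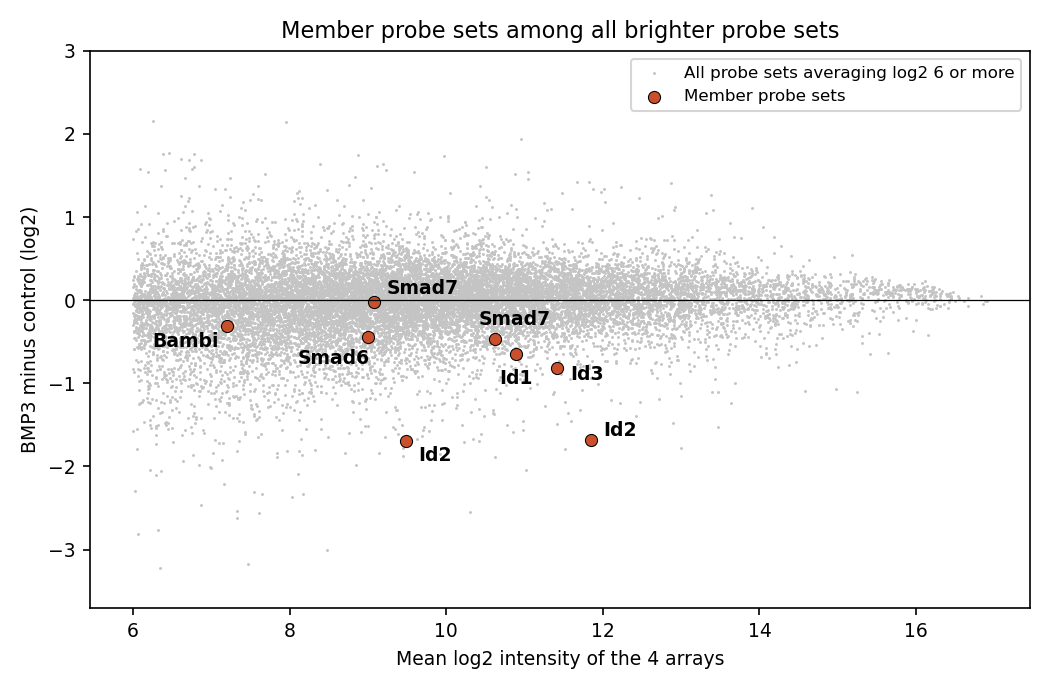
Difference between groups (BMP3 minus control, log2, vertical axis) against the mean log2 intensity of the 4 arrays (horizontal axis) for the 17152 probe sets averaging at least 6 (grey), with the 8 such member probe sets in red. Both Id2 probe sets sit at -1.69, near the lower edge of the cloud, while 1 Smad7 probe set sits at -0.02 within its centre.

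Counted together, 8 of the 9 genes averaged lower at their brightest probe set, with a median difference of -0.44, against 57.6% lower and a median of -0.01 over all 18193 genes. That count includes the 3 dim genes. The 6 genes averaging at least 6, each of which exceeded 6 on all 4 arrays, had 6 lower and a median of -0.56. Over the 9185 genes at that level, 46.7% were lower and the median was 0.02. Groups did not overlap, with BMP3 lower, at 9 of the 14 probe sets, of which 2 were dim (Id2 1453596_at and Atoh8), against 23.3% of all probe sets, and at 6 of the 6 brighter genes, against 21.7% of genes at that level. Of these 6, Id2 and Id3 also reached an unadjusted p under 0.05 with at least a 1.5-fold lower value, as did 2.83% of genes at that level. An unadjusted p under 0.05 with at least a 1.5-fold lower value was reached by 3 of the 14 probe sets, 2 of Id2 and 1 of Id3, against 2% of all. The genes were chosen with earlier results of these arrays known, so these counts describe them and test nothing. The median of the 9 was -0.28 without control replicate 2.

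**Figure D3:**
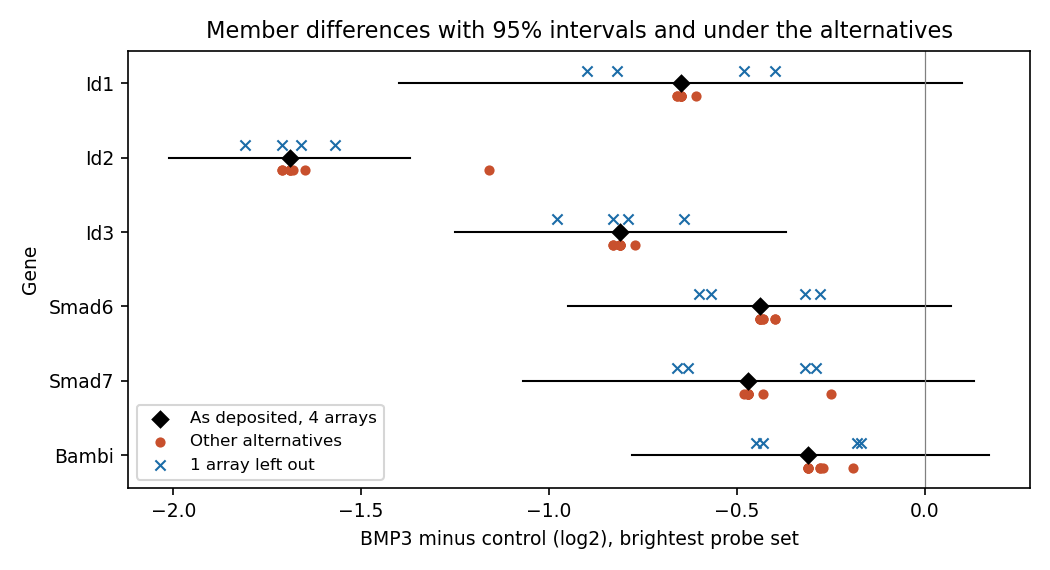
Difference of the 6 brighter genes (BMP3 minus control, log2, horizontal axis) at their brightest probe set with all 4 arrays (black diamonds, bars are limma's 95% intervals), with 1 array left out (blue crosses) and under the other processing alternatives (red points). All points lie below 0, but only those from quantile normalization, median centring and cyclic loess could have crossed it. The interval excludes 0 for Id2 and Id3 only, and the Id2 point at -1.16 averages its dim probe set in.

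Other genes of the pathway had differences in both directions. Of 18 other genes known as SMAD1/5 targets, 11 averaged at least 6, with 3 lower, 8 higher and a median difference of 0.12. In this list 0 passed the adjusted threshold, and at an unadjusted p under 0.05 there were 0 lower and 3 higher among the 11, against 18.2% of all genes at that level in either direction. Smurf1, which encodes a ubiquitin ligase that SMAD6 and SMAD7 bring to the receptors, read 9.08 and 8.71 in control arrays against 9.72 and 9.64 in BMP3 arrays (difference 0.78, SE 0.15, limma adjusted p = 0.391). Hes1, a transcriptional repressor gene of the Notch pathway that BMP can also induce, read 7.78 and 7.62 in control arrays against 8.90 and 8.34 in BMP3 arrays (difference 0.92, SE 0.23). The homeobox gene Dlx2 had a difference of 0.34 (SE 0.09). All 3 were higher on both BMP3 arrays than on either control array, the opposite direction to Id2. Groups did not overlap at 4 of the 11 higher and 2 lower, against 4392 of the 9185 genes at that level in either direction. The 2 lower, named after their values were seen, were Junb (difference -0.40, SE 0.26) and Dlx5 (difference -0.22, SE 0.17).

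Receptors and SMADs differed in both directions. Of 16 genes, 13 averaged at least 6, with 8 lower, 5 higher and a median of -0.04, and 0 had an unadjusted p under 0.05. Eng, which encodes the co-receptor endoglin, had 0.47 (SE 0.15, and 0.46 at its other probe set), Smad2 had 0.37 (SE 0.16, and 0.07 at its other probe set), and Smad4, the shared partner of all receptor SMADs, had -0.21 (SE 0.07, running from -0.39 to -0.03 over 3 probe sets). The type I receptor gene Bmpr1a had -0.03 at its brightest probe set, with 4 probe sets running from -0.32 to -0.03. Smad1 had -0.14 (from -0.14 to 0.03 over 3 probe sets) and Smad5 0.12 (from -0.10 to 0.12 over 3). These 3 were picked after their values were seen. Among ligands and extracellular antagonists, 8 of 14 measured genes averaged at least 6, with 5 lower, 3 higher and a median of -0.02. Chrd, which encodes the BMP antagonist chordin, had 0.16 (SE 0.04, limma adjusted p = 0.441). Grem1, another antagonist gene, and Bmp4, a ligand gene, spread widely between arrays. Grem1 read 10.74 and 11.24 in control arrays against 11.20 and 12.23 in BMP3 arrays, and Bmp4 13.57 and 14.25 against 12.68 and 13.94, so that the groups overlapped for both.

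**Figure D4:**
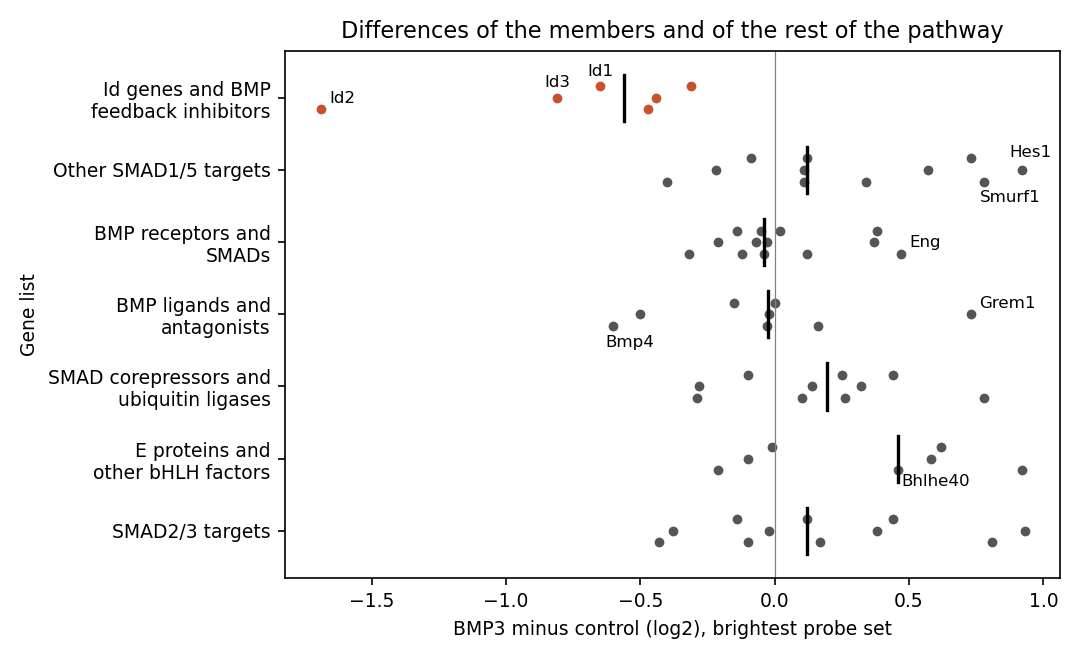
Difference between groups (BMP3 minus control, log2, horizontal axis) of each gene averaging at least 6, at its brightest probe set, for the 6 brighter genes described here (red) and 6 lists of other pathway genes (grey, vertical axis), with black bars at the medians. The red points all lie below 0 with a median of -0.56, and the medians of the other lists lie between -0.04 and 0.46; some genes stand in several lists.

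Intracellular modifiers of SMAD signalling, among them corepressors and ubiquitin ligases, all averaged at least 6, with 3 of 10 lower, 7 higher and a median of 0.20. Besides Smurf1, Ppm1a, a phosphatase gene, had 0.26 (SE 0.05), but its 6 probe sets ran from -0.49 to 0.30, and Tob1, an antiproliferative gene, had -0.28 (SE 0.09). The bHLH list bears on the ID proteins, since E proteins are what they bind. Of 17 genes 7 averaged at least 6, with 3 lower and 4 higher and a median of 0.46, while over all 17, dim ones included, 10 were lower and 7 higher with a median of -0.01. The E protein gene Tcf3 read 11.05 and 11.15 in control arrays against 11.78 and 11.33 in BMP3 arrays (difference 0.46, SE 0.19), with 0.29 to 0.51 over its 3 probe sets, while Tcf12 and Tcf4, taken after their values were seen, had -0.01 and -0.21. The 4 Tcf12 probe sets did not give the same answer, running from -1.14 to 0.37, and the 5 of Tcf4 ran from -0.38 to -0.03. Bhlhe40, a repressor gene of the clock and hypoxia responses, read 9.27 and 9.35 in control arrays against 9.90 and 9.88 in BMP3 arrays (difference 0.58, SE 0.05, limma adjusted p = 0.224). Targets of the parallel SMAD2/3 branch, which also induces Smad7, had 5 of 11 lower and 6 higher with a median of 0.12. The groups overlapped for each of the 11, whereas they did not overlap for 4392 of the 9185 genes averaging at least 6. For most of the 11, though not Snai2 and Tgif1, the replicate 2 array read higher in both groups. The median level of the list was 12.03 and 12.67 in control replicates 1 and 2, and 11.79 and 13.06 in BMP3 replicates 1 and 2. Such a spread widens both groups, so their overlap does not show that these genes were unchanged. Ltbp2 had 0.38 (SE 0.23), Snai2 -0.43 (SE 0.35) and Tgfbi -0.38 (SE 0.38).

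The genes whose pattern over the 4 arrays was most like that of Id2 were found by distance between mean-centred profiles among the 9179 other genes averaging at least 6. In order they were Fat4, which encodes a giant cadherin, the immediate early gene Fos, the growth factor gene Hgf, the glutathione transferase gene Gstt3 and the nuclear receptor gene Rora. Their distances ran from 0.0951 to 0.34, against a length of 1.7 for the Id2 profile itself. Fat4 was the nearest, reading 14.03 and 13.75 in control arrays against 12.14 and 12.08 in BMP3 arrays (difference -1.78, SE 0.12, limma adjusted p = 0.217). Fos read 11.26 and 11.23 against 9.75 and 9.51, and Hgf 11.72 and 11.58 against 10.25 and 9.87. For Id1 the nearest were Tmem9, the integrin gene Itga5, Hypk, Fam118b and the DNA damage kinase gene Atm, at distances of 0.0246 to 0.136 against a length of 0.78. The 9 genes themselves were left out of both searches, and likeness over 4 arrays says little on any single gene.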

How the data were processed

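Total RNA of 2 control and 2 BMP3 cultures was labelled with biotin for Affymetrix 3' arrays. This is per the labels' protocols. The authors' deposited table holds 1 value per probe set and array, read as log2 intensity from the range of the values, since no source states the scale. The submitters' processing notes name Partek. How background, normalization and probe summary were handled is not given in the sources used here, and a normalization that equalises arrays would hide a shift of most transcripts.

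After 64 control probe sets were left out, 45037 were tested without a filter, using R 4.3.3 and limma 3.58.1 (two-sided, moderated by eBayes) with Benjamini-Hochberg adjustment over all of them. Of these, 34945 carried 1 symbol in the platform annotation, 932 several and 9160 none. A gene is represented by its brightest probe set. The fit was tested on simulated data. The number of arrays limits the precision.

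The 9 genes and all lists were chosen with earlier results of these data known. Named genes were the 9 genes, up to 3 of smallest unadjusted p per list among those averaging log2 6 or more, and the 5 nearest profiles of Id2 and Id1. Some listed genes are not reported here. Motifs were searched on both strands of RefSeq promoters. Alternatives were the replicate block, leaving out each array, quantile normalization, median centring, cyclic loess, a filter at log2 6, an intensity trend, an offset of 16, the mean of a gene's probe sets and an ordinary linear model.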

Additional observations from a re-analysis of the deposited data

How the results depend on the processing

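The 6 brighter genes had lower values in BMP3 arrays under all 12 alternatives run for each, and with 4 arrays none passed an adjusted p of 0.05. For most alternatives this direction was fixed in advance. The groups did not overlap, so leaving out 1 array or adding the offset could not reverse it. The block, the trend and the filter do not alter a difference, and every probe set averaged was lower. Only quantile normalization, median centring and cyclic loess could have reversed a sign. The differences ran from -1.81 to -1.16 for Id2 (limma adjusted p from 0.136 to 0.664), from -0.98 to -0.64 for Id3, from -0.90 to -0.40 for Id1, from -0.60 to -0.28 for Smad6, from -0.66 to -0.25 for Smad7 and from -0.45 to -0.17 for Bambi. The smallest Id2 and Smad7 values came from averaging all probe sets of a gene. The count of genes lower was 7 to 9 with 1 array left out, and the median of the 9 ran from -0.57 to -0.28. Over all probe sets, the count at an unadjusted p under 0.05 and 1.5-fold was 1265 with 4 arrays, 1071 to 2277 with 1 array left out (2277 without BMP3 replicate 1), 2164 with the replicate block and 589 with an ordinary linear model. The adjusted count stayed at 0 under the alternatives with 4 arrays, and was not taken for the mean of a gene's probe sets.

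Same-numbered arrays deviated together from their group means (r = 0.596 over 17152 probe sets, which are not independent), but no label ties a number to a common day or batch, and there are only 2 pairs. With the replicate number as a block, the differences were the same and 0 member probe sets passed the adjusted threshold. The standard errors were 0.06 for Smad6, Smad7 and Bambi (limma adjusted p = 0.156, 0.151 and 0.202), 0.08 for Id2, 0.11 for Id3 and 0.25 for Id1. Dim signal limits Id4, Smad9 and Atoh8, whose differences enter the count and the median of the 9 but are not given singly.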
